A study of Rattus norvegicus with 8 samples.

Results

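The response of castrated rats to testosterone was compared between 24 h and 8 h after the dose, gene by gene, as the difference of the treated over control log2 ratios at the 2 times. All 8 arrays of the series entered this comparison, 4 at each time, and 10871 genes were tested out of 30367 gene probes on the array. The RNA came from castrated adult male Wistar rats, 120 ± 12 days old. Treated animals had received testosterone propionate, an injectable androgen ester, once under the skin at 4 mg/kg in 1 mL/kg of corn oil, 8 h or 24 h before; the control RNA was from castrated rats labelled as control. Treated and control RNA were hybridised together on each 2-colour Agilent array, so every array gave its own ratio. Dyes were swapped within each time: Cy3 marked the treated RNA of replicates 1 and 2 of 8 h and of replicates 3 and 4 of 24 h, and Cy5 that of the other arrays. The series concerns muscle atrophy, and the labels describe the material as cells of castrated rats without naming a muscle. Vehicle injection of the controls, pooling of animals and the sharing of control RNA between the times are not stated in the labels, so the p-values measure the spread between these arrays, which may be partly technical.

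Testosterone is a steroid hormone that alters transcription in muscle fibres, satellite cells and fibroblasts. Castration removes most circulating androgen and leads to a loss of muscle mass in androgen-sensitive muscles, which androgen replacement restores. Muscle mass follows the balance between protein synthesis, driven by insulin-like growth factor and mTOR signalling, and protein breakdown through the ubiquitin-proteasome system and autophagy, which FoxO factors and glucocorticoids promote.

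Each time filled 1 slide with its 4 arrays, so slide and time cannot be told apart in any difference below. Replicate 1 of 8 h stood apart with an SD of log2 ratios over genes of 0.444, against 0.18 to 0.201 on the other 8 h arrays and 0.236 to 0.307 at 24 h. Replicate 2 of 8 h stood apart by its pattern: across genes it correlated at 0.282 with replicate 1 but at -0.126 and -0.0354 with replicates 3 and 4. Of 18 skeletal muscle fibre markers measured, 17 had a control level above the 90th percentile of all genes (median log2 level 12.96, against 6.94 over all genes). Between 9954 and 13628 probes per array and channel were well above background. In a bulk sample, fewer cells of a type and less RNA per cell cannot be told apart, which holds for every gene below.

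The response of 141 genes differed between the times (1.3% of the genes tested at a Benjamini-Hochberg adjusted p under 0.05, limma), 79 with the higher ratio at 24 h (0.727%) and 62 with the lower (0.57%). Absolute differences ran from 0.49 to 2.88 on the log2 scale. The median difference over all genes was 0.03. On 135 of the 141 genes the 4 arrays of 24 h did not overlap the 4 of 8 h, against 9.37% of all genes tested. The same ratios chose the 141 genes, so this count is a description and adds no support to the call. The values at the threshold were close: Hmgn1 lay just inside at 0.60 (adjusted p = 0.0493) and Retreg1 just outside at -1.20 (adjusted p = 0.0504). At 24 h alone 766 genes passed (7.05%), 450 higher (4.14%) and 316 lower (2.91%), while under median centring 379 of 397 were higher. That centring put the median gene at 0.123 (8 h) and 0.155 (24 h). With loess, at 8 h alone 3 passed (0.0276%), although 1862 had an unadjusted p under 0.05 there (17.1%). The response classes rest on this call, and leaving out replicates 1 to 4 of 8 h in turn gave 539, 3179, 1403 and 1068 such genes.

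The count of 141 rested on the dye normalization and on the arrays. With each array centred on its median in place of loess, 0 genes passed and 897 had an unadjusted p under 0.05. All 141 kept their direction there, as they did whichever array was left out, and 134 of them had an unadjusted p under 0.05. The same arrays chose the 141 genes, so the kept direction is a description and adds no support. Without the 8 h arrays of replicates 1 to 4 the counts were 117, 598, 57 and 49, and without the 24 h arrays of replicates 1 to 4 they were 28, 93, 57 and 79. From the processed signals, 86 genes passed, 50 of them among the 141. A total of 26 genes passed whichever array was left out.

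Each gene was placed by the unadjusted p under 0.05 at each time. Among the genes that differed, 85 were late (0.782% of all genes): they passed at 24 h and not at 8 h. A further 13 were growing (0.12%), with the same sign at both times and the larger ratio at 24 h. Of these 13, 0 passed the adjusted threshold at 8 h. Another 41 were reversed (0.377%), with opposite signs at the 2 times, and 2 were transient (0.0184%), past the limit at 8 h and not at 24 h. Apart from the genes that differed, 109 genes (1.0%) were early and kept. They had an unadjusted p under 0.05 at 8 h and an adjusted p under 0.05 at 24 h. They also had the same sign at both times and no difference past the threshold. Of the 109, 3 passed the adjusted threshold at 8 h. The rule used both ratios, so the class sizes are a description, and missing the limit at 8 h does not show that a late gene was unaltered there.

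**Figure D1:**
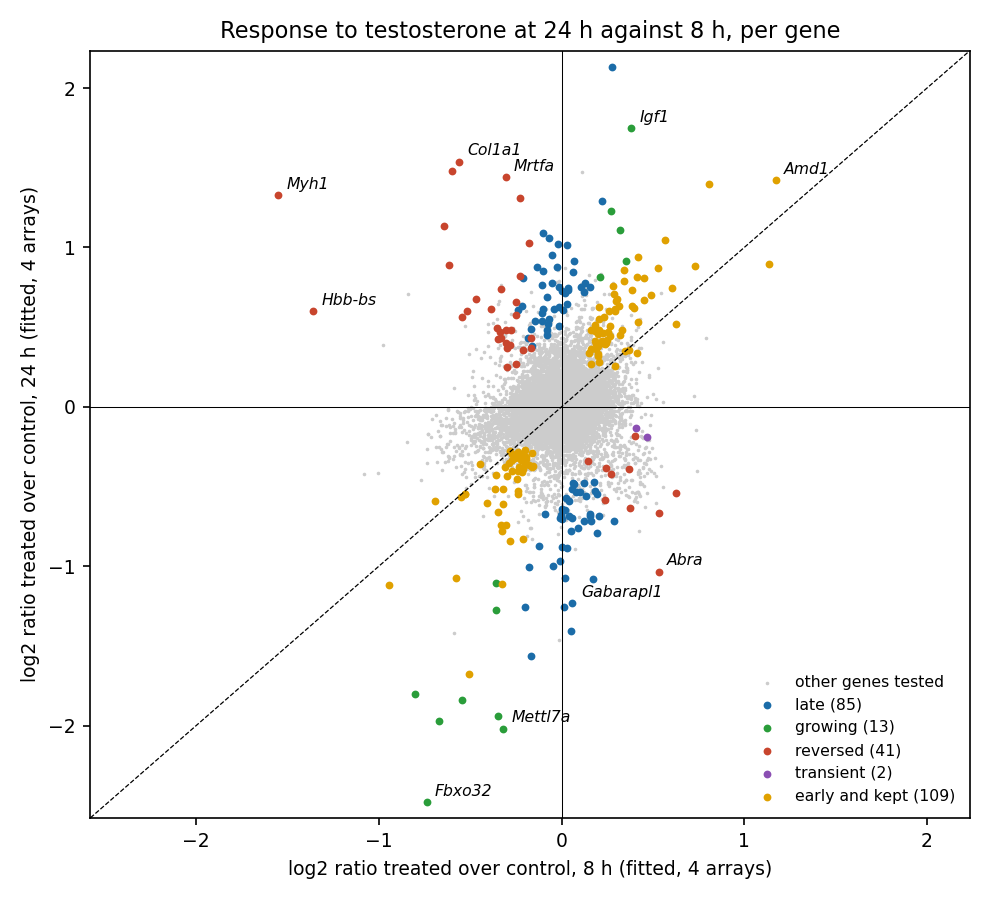
Fitted log2 ratio of treated over control RNA at 8 h (horizontal axis) and 24 h (vertical axis), 1 point per gene tested, coloured by response class with the number of genes in brackets. The dashed line marks equal ratios; Myh1 (-1.55 and 1.33) and Fbxo32 (-0.74 and -2.48) lie farthest from it among reversed and growing genes.

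Early and kept genes included those with the clearest response at 8 h. Amd1, the S-adenosylmethionine decarboxylase that supplies aminopropyl groups for polyamine synthesis, had log2 ratios of 1.51, 1.17, 1.01 and 1.02 on the 8 h arrays and 1.67, 1.47, 0.87 and 1.69 on the 24 h arrays. All 8 arrays lay above 0 and the 2 times overlapped. Amd1 rose 2.26-fold at 8 h and 2.68-fold at 24 h (adjusted p = 0.0282 and 0.000387), and the difference of 0.25 had a 95% interval of -0.18 to 0.68. Spns2, an exporter of the lipid mediator sphingosine 1-phosphate, stood at 1.04, 0.96, 0.40 and 0.84 at 8 h and at 1.36, 1.10, 1.49 and 1.62 at 24 h. Every 24 h array of Spns2 was above every 8 h array, and its difference of 0.59 (SE 0.12) just missed the threshold (adjusted p = 0.0504).

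Tob2, a regulator of mRNA deadenylation, had ratios of 1.49, 1.70, 0.53 and 0.83 at 8 h and 1.28, 0.88, 0.56 and 0.86 at 24 h. Its 8 h ratio of 1.13 (SD 0.55, n = 4) did not pass at 8 h (adjusted p = 0.116), while at 24 h it rose 1.86-fold (adjusted p = 0.0148). The arrays split by dye at 8 h, with the higher values where the treated RNA carried Cy3. Bag3, a co-chaperone of chaperone-assisted autophagy in muscle, stood at 0.73 (SD 0.39) at 8 h and rose by 0.88 (SD 0.21) at 24 h. Zbtb38, a zinc finger protein that binds methylated DNA, had a mean ratio of -0.69 at 8 h (SD 0.39) and of -0.59 at 24 h (SD 0.06).

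Fkbp5, a co-chaperone of steroid receptors and a common androgen and glucocorticoid target, stood at 0.50, 0.32, 0.09 and 0.45 at 8 h and 0.91, 0.93, 0.69 and 0.90 at 24 h. Arrays of the 2 times did not overlap, but the difference of 0.52 (SE 0.12) missed the threshold (adjusted p = 0.0695). The control RNA of Fkbp5 was well above background on 2 of 4 arrays at 8 h and 3 of 4 at 24 h, so its ratios lie near the floor. In the list of androgen-responsive genes and steroid receptor cofactors, 5 of 19 measured genes were early and kept, and 1, Igf1, differed between the times. The shares of all genes tested were 1.0% and 1.3%. The list was drawn up with earlier results of these arrays known and is no independent evidence. Its median difference was 0.11, against 0.03 over all genes.

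Hspa5, the endoplasmic reticulum chaperone BiP, was looked at after its values were seen. It had ratios of 0.92, 0.30, -0.03 and 0.36 at 8 h and 0.85, 0.57, 0.79 and 0.74 at 24 h, and it rose 1.67-fold at 24 h (adjusted p = 0.00545). Among 69 early and kept genes with a promoter in the RefSeq table (assembly GRCr8), Hspa5 was the 1 whose 250 bases before the start hold the ER stress element, CCAAT and CCACG separated by 9 bases, on either strand, and 0.0765% of 27457 promoters hold it. The element contains a CCAAT box at its 5′ end. The sequence is shown for that match, in capitals, which begins 43 bases before the start (chr3:38452766-38453015, plus strand, GRCr8):
Hspa5: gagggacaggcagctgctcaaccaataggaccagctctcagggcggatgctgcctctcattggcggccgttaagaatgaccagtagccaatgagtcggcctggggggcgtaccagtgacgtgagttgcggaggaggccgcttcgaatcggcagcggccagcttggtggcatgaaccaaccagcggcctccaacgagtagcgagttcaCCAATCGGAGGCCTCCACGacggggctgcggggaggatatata
A match is a description of these letters and not a site. Of 22 genes of the endoplasmic reticulum chaperone and stress list, 7 rose and 2 fell at 24 h, and 1 differed between the times. The shares of all genes tested were 4.14%, 2.91% and 1.3%.

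The growing class held genes of growth factor signalling and of protein breakdown. Igf1, the growth factor that drives muscle protein synthesis, had ratios of 0.69, 0.96, -0.28 and 0.15 at 8 h and 1.76, 1.60, 2.07 and 1.56 at 24 h. Every 24 h array was above every 8 h array, and at 8 h the 2 arrays with the treated RNA in Cy3 were the higher ones. The difference was 1.37 (SE 0.19, 95% interval 0.95 to 1.79, adjusted p = 0.0105), and another probe of Igf1, on the same chromosome, gave 1.07. Igfbp3, a binding protein of the insulin-like growth factors, stood at 0.14, -0.22, -0.80 and -1.32 at 8 h and at -2.25, -2.02, -1.67 and -1.43 at 24 h, a difference of -1.29 (SE 0.16). Its 24 h arrays all lay below its 8 h arrays, and at each time the higher values were those with the treated RNA in Cy3. Pik3ip1, which inhibits phosphoinositide 3-kinase, had ratios of -1.11, -0.74, -0.68 and -0.68 at 8 h and fell by 1.80 on the log2 scale at 24 h (SD 0.36), a difference of -1.0 (SE 0.18). These 3 were the members of the list of insulin-like growth factor, PI3K and mTOR signalling that differed, out of 28 measured. The list's median difference was 0.04, and 1.3% of all genes tested differed.

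Fbxo32, the muscle ubiquitin ligase atrogin-1, had ratios of -1.17, -0.04, -1.04 and -0.70 at 8 h and -2.40, -2.05, -3.16 and -2.30 at 24 h. Every 24 h array lay below every 8 h array, and replicate 2 of 8 h lay near 0. The difference was -1.74 (SE 0.28, 95% interval -2.37 to -1.11, adjusted p = 0.021). Klhl38, a kelch protein of muscle, stood at -0.35 (SD 0.23) at 8 h and fell by 1.94 at 24 h (SD 0.45), a difference of -1.59 (SE 0.19). Zfand5, a proteasome-binding zinc finger protein that was late, was the remaining member of the ubiquitin ligase and atrophy list that differed: 3 of 24 were lower at 24 h and 0 higher (median difference -0.20). Of all genes tested, 0.57% were lower and 0.727% higher by the difference. At 24 h alone 8 of the 24 fell and 1 rose, against 2.91% and 4.14% of all genes tested. Klf15, a glucocorticoid-induced factor of amino acid catabolism, had ratios of -0.15, -0.26, -0.47 and -0.55 at 8 h and -1.22, -1.11, -1.16 and -0.92 at 24 h. All 8 arrays of Klf15 lay below 0 and the times did not overlap (difference -0.75, SE 0.10, adjusted p = 0.0099). Ddit4l, a stress-induced inhibitor of mTOR signalling with 3 usable arrays at 8 h, differed by -0.91 (SE 0.17).

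Ucp3, an uncoupling protein of muscle mitochondria, stood at -1.08, -0.36, -0.77 and -0.46 at 8 h and at -2.04, -2.19, -1.90 and -1.76 at 24 h. Its times did not overlap, and the difference was -1.30 (SE 0.17, adjusted p = 0.00836). Mettl7a, a methyltransferase of the endoplasmic reticulum and lipid droplets, fell by 2.02 at 24 h (SD 0.10) from -0.32 at 8 h (SD 0.21), but its other probe gave a difference of -0.02, against -1.70. Growing genes with higher ratios at 24 h, besides Igf1, were Ankrd9, an ankyrin repeat protein (0.32 at 8 h and 1.11 at 24 h), Atg4a, a protease that processes autophagosome proteins (0.35 and 0.91), Bmper, a secreted modulator of BMP signalling (0.21 and 0.82), and Mybph, a myosin-binding protein named after its values were seen (0.27 and 1.23). The other probe of Atg4a gave a difference of 0.25, against 0.56. With each array centred on its median, Klhl38 (0.01) and Mettl7a (0.11) stood above 0 at 8 h and Klf15 stood at -0.03, so the 8 h response of these 3 depended on loess. The other growing genes kept their sign at 8 h, but their size moved as well. Igfbp3 went from -0.55 to -0.14, Fbxo32 from -0.74 to -0.36 and Igf1 from 0.38 to 0.85.

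Leaving out arrays ended some of these calls. Without the 24 h array of replicate 1, Igf1 stood at adjusted p = 0.0579 and Klf15 at 0.0543. Fbxo32 was lost without 8 h replicate 4 or 24 h replicates 1 or 3, where its adjusted p reached 0.0905. Pik3ip1 was lost without 8 h replicates 3 or 4 or 24 h replicates 1, 2 or 4, with an adjusted p of up to 0.126. Ddit4l was lost without 8 h replicates 2, 3 or 4 or 24 h replicates 1 or 2. Atg4a was lost without 8 h replicates 3 or 4 or any 24 h array, Bmper also without 8 h replicate 1, and Mybph without 8 h replicate 4 or 24 h replicates 1, 3 or 4. Igfbp3, Klhl38, Ucp3, Mettl7a and Ankrd9 passed whichever array was left out.

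**Figure D2:**
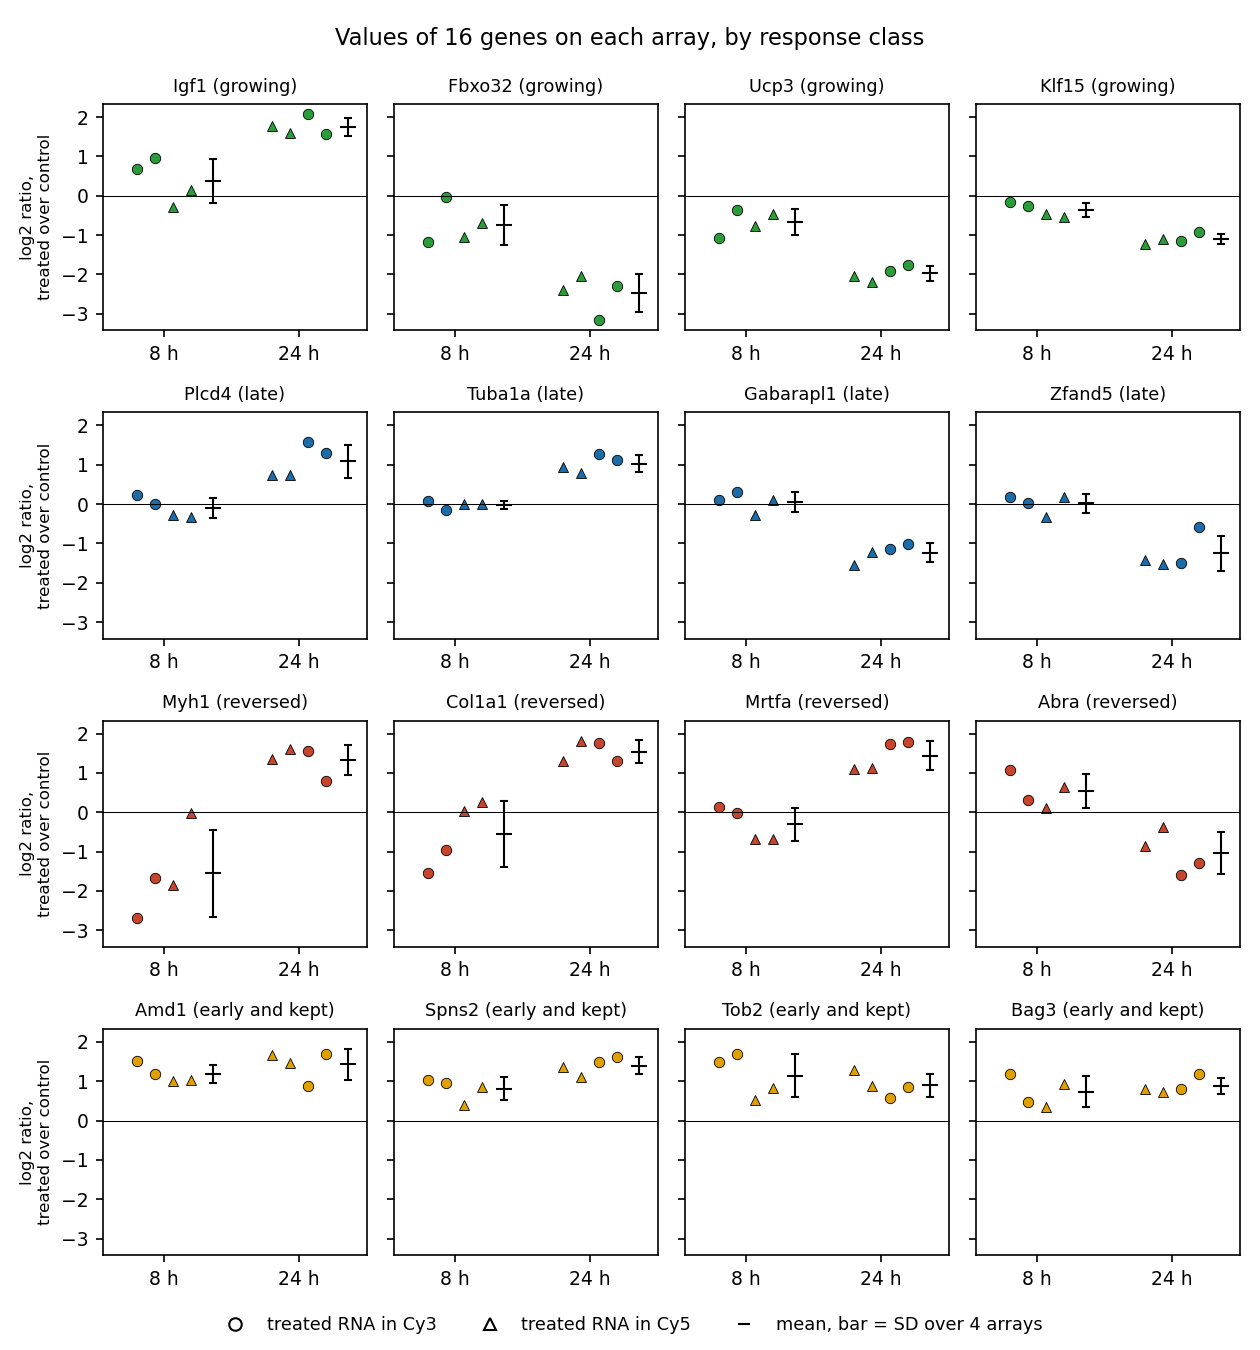
Log2 ratio of treated over control RNA on each array for 16 genes, 4 from each of 4 response classes; circles are arrays with the treated RNA in Cy3 and triangles those with it in Cy5, and the bar is the mean and SD over the 4 arrays of a time. The 24 h arrays of Fbxo32 lie between -3.16 and -2.05 and its 8 h arrays between -1.17 and -0.04, while the 2 times of Amd1 overlap.

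Late genes with a higher ratio at 24 h numbered 43 and included parts of the cytoskeleton. Tuba1a, an alpha tubulin, had ratios of 0.08, -0.15, -0.00 and -0.01 at 8 h and 0.94, 0.78, 1.27 and 1.11 at 24 h. Tuba1b, a close paralogue, stood at -0.33, -0.10, -0.10 and 0.14 at 8 h and at 0.89, 0.76, 0.86 and 0.91 at 24 h. In both genes the 8 h arrays lay around 0 and every 24 h array was above them. The differences were 1.05 (SE 0.11, adjusted p = 0.00533) and 0.95 (SE 0.11, adjusted p = 0.00728). Probes of such paralogues can share signal, which was not tested, and a second probe that carries the Tuba1b name, placed on chromosome 19 where the one used is on chromosome 7, gave 0.54. Actg1, a cytoplasmic gamma actin, stood at -0.33, -0.22 and -0.01 on the 3 usable 8 h arrays and at 0.58, 0.59, 1.13 and 0.93 at 24 h, a difference of 1.02 (SE 0.16); its other probe gave 0.53. Among 31 tubulin and actin genes with coactivators of serum response factor, 4 were higher and 1 was lower at 24 h, with a median difference of 0.11. The shares of all genes tested were 0.727% and 0.57%.

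Actg1 was the 1 of 58 late genes in the promoter table with a CArG box, the binding motif of serum response factor, in the 250 bases before its start. The box was also found in 1 of 25 reversed promoters (Fhl1), 2 of 69 early and kept ones (Itgb6 and Zbtb38) and 0 of 10 growing ones. Of all 27457 promoters 1.5% held it. The sequence shows it in capitals, with its 5′ end 90 bases before the start (chr10:106120952-106121201, minus strand, GRCr8):
Actg1: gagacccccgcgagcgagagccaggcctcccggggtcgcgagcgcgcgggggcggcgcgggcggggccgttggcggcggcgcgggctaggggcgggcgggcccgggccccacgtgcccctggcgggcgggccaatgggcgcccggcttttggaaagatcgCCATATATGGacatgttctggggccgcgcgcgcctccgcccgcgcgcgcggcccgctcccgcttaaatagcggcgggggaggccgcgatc
A CCAAT box, which 34.3% of promoters hold, was found in 20 of the 58 late, 15 of 25 reversed, 4 of 10 growing and 21 of 69 early and kept promoters. The response element of steroid receptors such as the glucocorticoid receptor, AGAACA and TGTNCT separated by 3 bases on either strand, was in none of these windows, and in 2 of all 27457.

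Other late genes with the higher ratio at 24 h had roles in signalling and matrix. Plcd4, a phospholipase C of calcium signalling, had ratios of 0.22, -0.00, -0.29 and -0.33 at 8 h and 0.74, 0.74, 1.58 and 1.30 at 24 h. Every 24 h array lay above every 8 h array, and at each time the arrays split by dye, with the higher values where the treated RNA carried Cy3. The difference was 1.19 (SE 0.11, 95% interval 0.94 to 1.44, adjusted p = 0.00206). Creb3l1, a membrane-bound transcription factor that drives collagen secretion, stood at -0.36, 0.10, 0.13 and -0.14 at 8 h and at 1.04, 1.04, 1.26 and 0.91 at 24 h, a difference of 1.13 (SE 0.13). Its 24 h arrays all lay above its 8 h arrays. Postn, the matrix protein periostin, differed by 0.84 (SE 0.16) and Col5a2, a chain of type V collagen, by 1.01 (SE 0.18). The other probe of Col5a2 gave 0.54. C1qa, a complement chain made by macrophages, differed by 0.77 (SE 0.11), Jph2, which couples surface and reticulum membranes in muscle, by 0.68 (SE 0.13), and Dpep1, a dipeptidase, by 1.07 (SE 0.20). A probe without a gene symbol held the largest late difference, 1.86.

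Late genes with the lower ratio at 24 h numbered 42. Gabarapl1, which joins the growing autophagosome membrane, had ratios of 0.11, 0.30, -0.29 and 0.11 at 8 h and -1.55, -1.23, -1.14 and -1.01 at 24 h. Its 8 h arrays lay around 0 and the times did not overlap. The difference was -1.29 (SE 0.12, adjusted p = 0.00207), but the other probe of Gabarapl1 gave -0.28. Ulk1, the kinase that starts autophagy, stood at -0.59, 0.15, -0.03 and 0.28 at 8 h and at -0.85, -0.98, -1.30 and -0.86 at 24 h, a difference of -0.95 (SE 0.17). These were the 2 of 23 autophagy and lysosome genes that differed, against 1.3% of all genes tested, and the list's median difference was -0.09.

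Zfand5 had ratios of 0.17, 0.03, -0.33 and 0.19 at 8 h and -1.41, -1.53, -1.51 and -0.58 at 24 h, a difference of -1.27 (SE 0.20). Replicate 4 of 24 h was the weakest, yet below every 8 h array. Pim3, a serine/threonine kinase of growth and survival signalling, differed by -1.25 (SE 0.15, adjusted p = 0.00728), from 0.17 (SD 0.23) at 8 h to -1.08 (SD 0.22) at 24 h. Cxcl14, a chemokine with 3 usable arrays at 8 h, differed by -1.40 (SE 0.18), and Ppp1r15a, which reverses the translational block of the stress response, by -0.89 (SE 0.15). Aqp4, the water channel of fast fibres, stood at 0.39, 0.44, -0.49 and -0.14 at 8 h and at -1.75, -0.86, -1.88 and -1.12 at 24 h. The times did not overlap, though the 8 h arrays split by dye. Its difference was -1.45 (SE 0.26), against -0.49 and -0.17 on its other 2 probes.

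Under median centring the 7 late genes named with the lower ratio all stood above 0 at 8 h, from 0.20 (Cxcl14) to 0.49 (Pim3) and 0.51 (Gabarapl1), and below 0 at 24 h. Where these genes stood at 8 h thus depended on the normalization. Among late genes with the higher ratio, median centring put Plcd4 at 0.28, Tuba1a at 0.28, Tuba1b at 0.33 and Postn at -0.03 at 8 h. Of the late genes named, Plcd4, Creb3l1, Tuba1a, Tuba1b, Gabarapl1 and Pim3 passed whichever array was left out. Actg1 was lost without 24 h replicates 1, 3 or 4, C1qa without 8 h replicate 4 or 24 h replicate 1, Cxcl14 without 8 h replicate 3 or 24 h replicate 1, and Zfand5 without 8 h replicate 4 or 24 h replicates 1 or 2. Col5a2 was lost without 8 h replicate 3 or 24 h replicates 1, 3 or 4. Aqp4 was lost without 8 h replicates 1 or 4 or 24 h replicates 1, 3 or 4. Ulk1 and Ppp1r15a were lost without 8 h replicates 3 or 4 or 24 h replicates 1, 2 or 3. Jph2 was lost without 8 h replicates 3 or 4 or any 24 h array, and Postn and Dpep1 without 8 h replicates 1 or 4 or any 24 h array. The highest adjusted p in any of these was 0.152, that of Jph2.

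The reversed class was led by fibrillar collagens and a myosin. Of its 41 genes, 31 had a fitted ratio below 0 at 8 h and above 0 at 24 h, and 10 the other way. None passed the adjusted threshold at 8 h and 36 did at 24 h. Under median centring 26 of the 41 had opposite signs at the 2 times. Myh1, the heavy chain of fast type 2X fibres, had ratios of -2.68, -1.68, -1.84 and -0.02 at 8 h and 1.36, 1.60, 1.55 and 0.79 at 24 h. Replicate 4 of 8 h lay near 0 and the other 3 far below, while all 24 h arrays lay above. The difference of 2.88 (SE 0.39, 95% interval 2.0 to 3.76, adjusted p = 0.0104) was the largest of all genes that differed. Cross-hybridisation between myosin heavy chain genes was not tested. Of 19 fast contractile genes Myh1 alone differed past the threshold, against 1.3% of all genes tested. The median difference of the list was -0.37, the opposite direction.

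Col1a1, a chain of type I collagen, stood at -1.54, -0.97, 0.02 and 0.25 at 8 h and at 1.29, 1.81, 1.77 and 1.29 at 24 h. Col1a2, its partner chain, stood at -1.56, -0.80, -0.23 and 0.01 at 8 h and at 1.14, 1.20, 1.18 and 1.02 at 24 h. Col3a1, the chain of type III collagen, stood at -1.34, -0.95, 0.19 and -0.30 at 8 h and at 0.96, 1.51, 1.94 and 1.51 at 24 h. In all 3 the low 8 h values were those of replicates 1 and 2, in which the treated RNA carried Cy3, and every 24 h array was higher. The differences were 2.10 (SE 0.28), 1.78 (SE 0.22) and 2.08 (SE 0.30), with an adjusted p of 0.00881, 0.00836 and 0.0129. The other probe of Col1a1 gave 1.42. Of 13 collagen chains, 4 were higher at 24 h and 0 lower (median difference 0.52), and of 24 other matrix genes 2 were higher and 0 lower (median 0.28). The shares of all genes tested were 0.727% higher and 0.57% lower. Ccdc80, a secreted matrix protein, had ratios of -0.42, -0.30, -0.10 and -0.10 at 8 h and 1.15, 1.27, 1.49 and 1.34 at 24 h, a difference of 1.54 (SE 0.12, adjusted p = 0.000547). Under median centring Ccdc80 stood at 0.12 at 8 h and was no longer reversed.

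Mrtfa, a coactivator of serum response factor that senses free actin, had ratios of 0.13, -0.01, -0.68 and -0.67 at 8 h and 1.11, 1.13, 1.73 and 1.79 at 24 h. Its arrays split by dye at each time, with the treated RNA in Cy3 giving the higher values, and the times did not overlap. The difference was 1.74 (SE 0.09, adjusted p = 3.29e-05), but the other probe of Mrtfa gave 0.20. Srebf1, a transcription factor of lipid synthesis, stood at -0.22, -0.12, -0.28 and -0.30 at 8 h and at 0.79, 0.72, 0.63 and 1.15 at 24 h, a difference of 1.05 (SE 0.12, adjusted p = 0.00674). All 4 arrays of each time had the same sign, although Srebf1 stood at 0.11 at 8 h under median centring. It was the 1 of 17 sterol and fatty acid synthesis genes that differed, against 1.3% of all genes tested (median difference 0.18). Fabp4, a fatty acid carrier of adipocytes, macrophages and capillaries, differed by 0.60 (SE 0.09), and Tjap1, a tight junction protein, by 1.20 (SE 0.11) with 0.14 at 8 h under median centring.

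Macrophage genes and the globin gene Hbb-bs were also in the reversed class. C1qc, a complement chain made by macrophages, had ratios of -0.42, -0.23, -0.37 and -0.30 at 8 h and 0.34, 0.35, 0.60 and 0.44 at 24 h, a difference of 0.76 (SE 0.10, adjusted p = 0.00836). The 4 arrays of each time had the same sign. Cd163, the macrophage receptor for haemoglobin-haptoglobin complexes, differed by 0.85 (SE 0.13), Clec4a3, a lectin of myeloid cells, by 0.78 (SE 0.10), and Cfb, complement factor B, by 1.51 (SE 0.29). Clec4a3 had ratios of -0.64, -0.63, 0.18 and -0.13 at 8 h and 0.70, 0.79, 0.20 and 0.24 at 24 h. Cfb had -1.11, -1.09, -0.33 and 0.07 at 8 h and 0.53, 1.58, 1.31 and 0.15 at 24 h. In Clec4a3 and Cfb the low 8 h values were those with the treated RNA in Cy3. Of 19 macrophage and monocyte markers measured out of 22 listed, 4 were higher at 24 h and 0 lower, against 0.727% and 0.57% of all genes. At 8 h 11 of the 19 had an unadjusted p under 0.05, all below 0. Of all 10871 genes tested 1862 had such a p (17.1%), 1200 of them below 0. Without 8 h replicate 1, 539 of all genes had such a p.

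Hbb-bs, a beta globin chain of red blood cells, stood at -1.27, -0.05, -2.35 and -1.76 at 8 h and at -0.07, 0.00, 0.79 and 1.69 at 24 h. Its times overlapped at replicate 2 of 8 h, and the difference was 1.96 (SE 0.27, adjusted p = 0.0112). Globin probes can share signal between paralogues. The 3 erythrocyte markers of the list had array medians of -1.42, 0.39, -2.18 and -0.09 at 8 h and 0.18, 0.14, 1.61 and 0.10 at 24 h. Of these 3, which do not include Hbb-bs, 0 differed past the threshold, against 1.3% of all genes tested. For macrophages the array medians ran -0.60, -0.17, -0.09 and -0.08 at 8 h and 0.18, 0.25, 0.28 and 0.05 at 24 h. Endothelial markers, 7 of 13 measured, had medians of -0.72, -0.05, -0.02 and 0.10 at 8 h and between -0.04 and 0.07 at 24 h. Replicate 1 of 8 h was thus the lowest array for macrophage, endothelial and collagen genes, with a collagen median of -0.61. The part of blood, vessel and macrophage content in the matrix and macrophage results was not tested. Without that array the median difference was 0.27 for macrophage markers in place of 0.38, 0.49 for collagen chains in place of 0.52 and 0.02 for endothelial markers in place of 0.24.

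**Figure D3:**
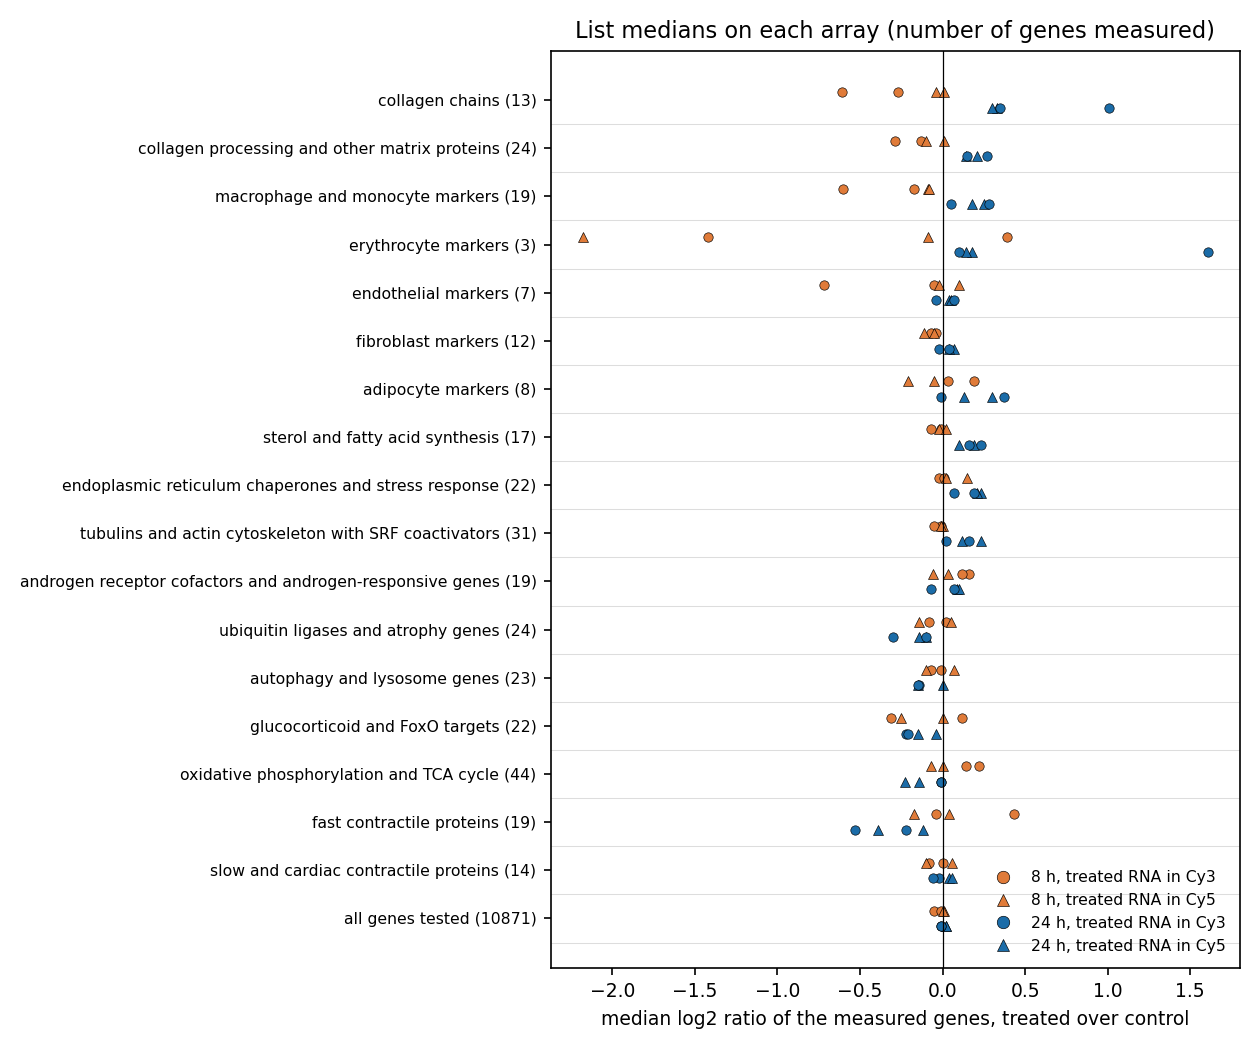
Median log2 ratio of treated over control RNA over the measured genes of 17 gene lists and over all genes tested, 1 symbol per array; orange symbols are 8 h arrays, blue symbols 24 h arrays, circles have the treated RNA in Cy3 and triangles in Cy5. The collagen chains lie between -0.61 and 0.01 at 8 h and between 0.30 and 1.01 at 24 h, and the erythrocyte markers spread from -2.18 to 1.61.

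In the opposite direction, reversed genes had a fitted ratio above 0 at 8 h and below 0 at 24 h. Abra, a muscle protein that binds actin and activates Mrtfa-type coactivators, had ratios of 1.08, 0.31, 0.10 and 0.64 at 8 h and -0.87, -0.38, -1.60 and -1.29 at 24 h. All 4 arrays of each time had the same sign, and the difference was -1.57 (SE 0.27, adjusted p = 0.0241). Srxn1, the sulfiredoxin that repairs oxidised peroxiredoxins, stood at 0.80, 0.51, 0.21 and 0.98 at 8 h and at -0.38, -0.60, -0.77 and -0.43 at 24 h, a difference of -1.17 (SE 0.17). Hlx, a homeobox factor, stood at 0.55, 0.85, 0.20 and 0.53 at 8 h and at -0.48, -0.61, -1.05 and -0.53 at 24 h, a difference of -1.20 (SE 0.17). Abra, Srxn1 and Hlx fell at 24 h, with an adjusted p of 0.0117, 0.0271 and 0.0107. Klf9, a glucocorticoid-induced transcription factor, differed by -0.76 (SE 0.15), and Gpd1, the cytosolic glycerol-3-phosphate dehydrogenase, by -0.59 (SE 0.10). Klf9 had ratios of 0.82, 0.78, -0.24 and 0.11 at 8 h and -0.51, -0.55, -0.41 and -0.09 at 24 h. Gpd1 had 0.87, 0.59, 0.08 and 0.07 at 8 h and -0.46, -0.39, 0.10 and 0.01 at 24 h. Both genes split by dye at each time, with the higher values where the treated RNA carried Cy3. Neither Klf9 (-0.39, adjusted p = 0.0518) nor Gpd1 (-0.19, adjusted p = 0.156) passed at 24 h, and under median centring Gpd1 stood at 0.12 there.

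The 2 transient genes were Slc38a2, the amino acid transporter SNAT2, and Phf23, a PHD finger protein that restrains autophagy. Slc38a2 had ratios of 0.82, 0.67, 0.19 and 0.20 at 8 h and -0.29, -0.23, -0.30 and 0.06 at 24 h, and Phf23 had 0.48, 0.24, 0.39 and 0.51 at 8 h and -0.22, -0.13, -0.21 and 0.03 at 24 h. In both genes all 8 h arrays lay above 0 and above every 24 h array. The 8 h arrays of Slc38a2 split by dye, with the higher values where the treated RNA carried Cy3. Neither passed the adjusted threshold at 8 h (adjusted p = 0.169 and 0.155), and both differences, -0.66 and -0.54, were lost without 8 h replicates 1, 3 or 4 or any 24 h array.

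Among the reversed genes named, Myh1, Col1a1, Col1a2, Col3a1, Ccdc80, Mrtfa, Srebf1, Tjap1, C1qc, Clec4a3 and Hlx passed whichever array was left out. Hbb-bs was lost without 24 h replicate 1 (adjusted p = 0.0622) and Srxn1 without 24 h replicates 1 or 3. Fabp4 was lost without 8 h replicates 3 or 4 or 24 h replicate 1, and Abra without 8 h replicate 4 or 24 h replicates 1, 3 or 4. Cd163 was lost without 8 h replicates 3 or 4 or 24 h replicates 1, 3 or 4. Cfb was lost without 8 h replicates 1, 3 or 4 or 24 h replicates 2, 3 or 4, Klf9 without 8 h replicates 1 or 4 or any 24 h array, and Gpd1 without 8 h replicates 3 or 4 or any 24 h array.

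A difference of ratios can come from the treated or the control channel, so the level of each channel was set between the times. Levels were log2 channel values brought to a common scale across arrays, and since each time lay on its own slide, slide and time cannot be told apart in them. The differences that chose the genes are made of these shifts, which are therefore a description. In the late class the treated level shifted in the direction of the difference by a median of 0.68 and the control level by -0.04, with the treated shift the larger in 79 of 85 genes, against 5769 of all 10871 tested. In the growing class the medians were 1.28 and 0.20, and the treated shift was the larger in all 13. In the reversed class they were 0.60 and -0.27, with the treated shift the larger in 29 of 41, and in 25 of the 41 the control level moved against the difference by more than 0.2, as it did in 1841 of all genes tested. Over all genes tested the same medians were 0.08 and -0.06, and the SD of the shift over genes was 0.22 for treated and 0.17 for control RNA.

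Myh1 showed the 2 channels moving in opposite directions: its control level was 11.28 at 8 h and 9.90 at 24 h, and its treated level 9.73 and 11.22. Hbb-bs had control levels of 10.50 and 9.12 and treated levels of 9.14 and 9.73, so most of its difference lay in the control RNA. Col1a1 had control levels of 8.90 and 8.66 and treated levels of 8.34 and 10.20. Fbxo32 had control levels of 10.10 and 9.71 and treated levels of 9.36 and 7.23, and Igf1 had control levels of 11.27 and 11.18 and treated levels of 11.65 and 12.93. In these last 3 genes most of the difference lay in the treated RNA.

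**Figure D4:**
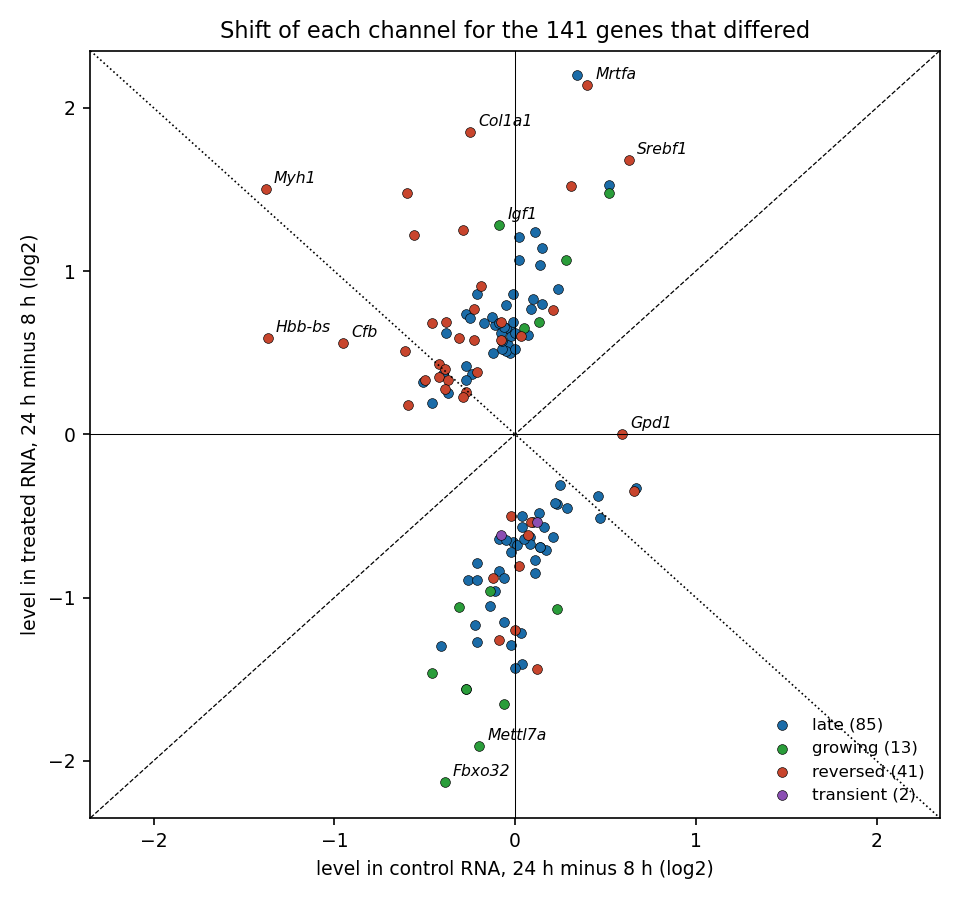
Shift of the log2 level from 8 h to 24 h in control RNA (horizontal axis) and in treated RNA (vertical axis) for the 141 genes that differed, coloured by response class. On the dashed line both channels shift alike and on the dotted line they shift equally in opposite directions; late and growing genes gather near the vertical axis, and Myh1 and Hbb-bs lie far to the left of it.

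In several groups no gene passed the test of the difference. Of all genes tested 1.3% passed it, so 0 in lists of these sizes lies near that share and does not show equal responses. Of 44 oxidative phosphorylation and TCA cycle genes 0 passed, with a median difference of -0.21 and 37 of 44 below 0. The medians of this list followed the dye: the Cy3-treated arrays of 8 h stood at 0.22 and 0.14 and the Cy5-treated ones at -0.07 and -0.00, and at 24 h the Cy5-treated arrays stood at -0.14 and -0.23 and both Cy3-treated ones at -0.01. Cox4i1, a subunit of cytochrome c oxidase, had the smallest p of these with Atp5po, a subunit of ATP synthase, at differences of -0.48 and -0.32 (adjusted p = 0.0946 and 0.105). None of 37 proteasome subunits (median -0.15, and 0.00 without 8 h replicate 1), 43 ribosomal proteins (0.08), 27 ribosome biogenesis factors (-0.07), 29 translation factors (-0.05), 16 clock genes (-0.04), 16 immediate early genes (0.02), 21 heat shock proteins (0.04), 17 polyamine genes (0.11), 22 myostatin, activin and BMP genes (0.00) or 12 satellite cell and myogenic factors (0.02) passed. Some lay close to the threshold. Pes1, a ribosome biogenesis factor, stood at -0.03 at 8 h and -0.56 at 24 h (adjusted p = 0.0504). Odc1, the ornithine decarboxylase that starts polyamine synthesis, had an adjusted p of 0.0538, with its control RNA not well above background on any array, so no fold is given. The activin antagonist Fst stood at 0.13 at 8 h and 0.73 at 24 h (adjusted p = 0.0722 for the difference) and Mat2a, which makes S-adenosylmethionine, at 0.02 and 0.59 (adjusted p = 0.0695). Fstl1, a secreted follistatin-like protein, and Rps19, a ribosomal protein, had an adjusted p of 0.0701 and 0.0703.

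Probe positions in the array files are on rn4, and exons and untranslated regions are not given there. The Myh1 probe lies on chromosome 10 at 53917888 to 53917947, the Ccdc80 probe on chromosome 11 at 57223348 to 57223407 and the Plcd4 probe on chromosome 9 at 73905068 to 73905127. For Mrtfa the probe used lies on chromosome 7 at 119306286 to 119306345 and the other at 119307240 to 119307299. For Gabarapl1 they lie on chromosome 4 at 166811168 to 166811227 and at 166810026 to 166810085. Of the 141 genes, 25 had more than 1 kept probe. All other probes of these had the same sign, and 17 genes had another probe with under 50% of the difference.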

How the data were processed

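Total RNA was extracted with Trizol, per the labels' protocols, and the submitters' processing notes name Agilent Feature Extraction 9.5.3.1 for the scans. The deposited mean signals and local backgrounds are linear intensities without normalization, and the deposited processed signals are intensities after background and dye correction, per the file headers. The deposited LogRatio column (log10, red over green) was not used. The deposited value table equalled the log2 ratio of processed signals, treated over control, within 1.35e-05 (column medians -0.144 to 0.0896), so it gave the same numbers as they did.

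Signals were corrected by normexp (offset 50) and loess within arrays in limma 3.58.1 (R 4.3.3), without flagged spots (731 to 927 of 42877 per array) and controls. Ratios were turned to treated over control. Probes well above background on at least 3 of 4 arrays in an RNA group were kept (12061), with the brightest probe per gene; 7544 genes had a symbol, from array accessions or file symbols through RefSeq's GRCr8 gene table. Ratios were modelled on the 2 times and the dye with lmFit and eBayes, two-sided, and run on simulated data. There, 40% of true differences of 0.5 and 86% of those of 1 were recovered, and 14 of 174 calls were unaltered genes. The simulated noise was normal and independent between arrays, so slide effects and outlying arrays were not part of it. The fit left out missing values. Python 3.11.15 made the tables. Channel levels came from loess and Aquantile normalization.

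Members, classes and lists were chosen with earlier results of these data known. Named genes with a symbol were the 12 with the largest difference in each direction, up to 12 with the smallest p at 8 h in each class but the late one, the list members that differed (up to 6) or the 2 with the smallest p, and 10 fixed genes; not every one is printed, and some items are not reported here. Same-numbered replicates of the 2 times correlated at -0.261, 0.173, -0.159 and -0.0796 in their deviations from the group means, so the numbers were not taken as pairs. Alternatives were other normalizations, filters, thresholds and weights and leaving out each array. The number of arrays limits the precision.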

Additional observations from a re-analysis of the deposited data

Results flagged for a closer look

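The responses at 24 h and 8 h differed for 141 genes by the test of the difference itself, the contrast of the 2 times in limma. Among those named above, the growing genes differed by 1.37 (Igf1), 0.96 (Mybph), 0.79 (Ankrd9), 0.60 (Bmper), 0.56 (Atg4a), -0.75 (Klf15), -0.91 (Ddit4l), -1.0 (Pik3ip1), -1.29 (Igfbp3), -1.30 (Ucp3), -1.59 (Klhl38), -1.70 (Mettl7a) and -1.74 (Fbxo32). The late genes with the higher ratio at 24 h differed by 1.19 (Plcd4), 1.13 (Creb3l1), 1.07 (Dpep1), 1.05 (Tuba1a), 1.02 (Actg1), 1.01 (Col5a2), 0.95 (Tuba1b), 0.84 (Postn), 0.77 (C1qa) and 0.68 (Jph2). The late genes with the lower ratio differed by -1.45 (Aqp4), -1.40 (Cxcl14), -1.29 (Gabarapl1), -1.27 (Zfand5), -1.25 (Pim3), -0.95 (Ulk1) and -0.89 (Ppp1r15a). The reversed genes differed by 2.88 (Myh1), 2.10 (Col1a1), 2.08 (Col3a1), 1.96 (Hbb-bs), 1.78 (Col1a2), 1.74 (Mrtfa), 1.54 (Ccdc80), 1.51 (Cfb), 1.20 (Tjap1), 1.05 (Srebf1), 0.85 (Cd163), 0.78 (Clec4a3), 0.76 (C1qc) and 0.60 (Fabp4), and by -0.59 (Gpd1), -0.76 (Klf9), -1.17 (Srxn1), -1.20 (Hlx) and -1.57 (Abra). The transient genes differed by -0.54 (Phf23) and -0.66 (Slc38a2).

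A further 11 of 199 groups of 4 arrays held an array far from the other 3 by Dixon's criterion, which chance alone meets in about 1 in 20 groups. Replicate 3 of 24 h stood apart for Fkbp5 (0.69) and for the medians of the collagen chains (1.01), the fibre markers (-0.55), the androgen list (-0.07) and the translation factors (-0.07). Replicate 4 of 24 h stood apart for Ddit4l (-0.68), Zfand5 (-0.58) and the median of the calcium handling genes (-0.10), and replicate 2 of 24 h for the median of the autophagy genes (0.00). Replicate 1 of 8 h stood apart for Pik3ip1 (-1.11) and for the median of the macrophage markers (-0.60).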

How the results depend on the processing

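All 141 genes kept their direction under every setting in which they were measured (136 of them under the strict filter). They were chosen on these same arrays, so this is a description and adds no support to the calls. Their number, 141 as reported, was 86 from the processed signals and from the deposited value table, 0 under median centring, 261 with arrays scaled to a common spread, 289 with array weights and 460 at an adjusted threshold of 0.1, and between 28 and 598 with an array left out. Genes past the threshold at 8 h numbered 1 from the processed signals, the deposited table and the fit without a dye coefficient, 0 under median centring and 9 with scaled arrays, and from 0 to 1226 with an array left out. At 24 h they numbered 397 under median centring and 1563 with array weights, and from 190 to 1240 with an array left out. The late class held 42 genes from the processed signals and the deposited table, 0 under median centring, 145 with scaled arrays and 178 with array weights, and from 11 to 187 with an array left out. The growing class held 0 under median centring, 8 without a dye coefficient and from 5 to 18 with an array left out. The reversed class held 0 under median centring, 95 with scaled arrays, 25 without a dye coefficient, 88 with array weights and from 12 to 208 with an array left out. The transient class held 0 under median centring, 1 without the filter on dim probes, without a dye coefficient or with an unadjusted threshold of 0.1, 6 with array weights and from 0 to 185 with an array left out. The early and kept class held 181 with array weights and from 39 to 242 with an array left out. The extremes came without 24 h replicate 1 (28 genes that differed) and without 8 h replicate 2 (598). The causes were not tested.

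With the replicate number as a block, 310 genes differed, 0 passed at 8 h and 134 at 24 h, and the growing, transient and early and kept classes held 20, 132 and 54; the numbers were not shown to pair the arrays.

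For the 62 genes named, 853 of 1114 alternatives kept the side of the threshold, 237 lost it, 20 passed it anew and 4 turned the sign of a difference that was not past the threshold. These were Tob2 with array weights (0.05) and Zbtb38 from the processed signals and the deposited table (-0.03) and without 8 h replicate 1 (-0.10, within a range of -0.10 to 0.25 over the arrays left out). Among list medians, 55 of 702 alternatives moved by more than the spread between arrays.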
